A study of Homo sapiens with 6 samples.

Results

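Long internal exons were taken from an exon annotation of U-87 MG cells: exons of 1000 bases or more that were neither first nor last in any listed isoform of their gene. There were 3575 of them, in 2547 gene names, among 124796 internal exons in 11869 gene names. A further 67 exons of this length were internal in some isoform but first or last in another and were not members. The members were chosen by their listed length and place, so these are given as a description, with no test.

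U-87 MG is an established human glioma line. Cells given DMSO, the vehicle (10 ul per 10 ml of medium), were compared with cells given 10 uM EPZ015666, both for 72 h. EPZ015666 inhibits PRMT5, an enzyme that methylates arginine. Poly(A)-selected RNA from each group was sequenced in 3 libraries, so all groups share the 1 cell line and no genetic change is named in the labels. The deposited file is 1 exon annotation in hg19 coordinates that covers both groups. Its label names DI, taken here to mean detained (unspliced) introns, and consensus coding isoforms. Rows of these kinds could not be separated from each other. The annotation holds 0 columns of values per library. The depth behind an exon is therefore unknown, no level or replicate error can be given, and nothing below compares EPZ015666 with DMSO.

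Most internal exons of human genes are short, and the splicing machinery is thought to recognise such an exon as a unit, across its upstream acceptor site and its downstream donor site. Long internal exons are rarer and often encode extended protein stretches, such as the glycosaminoglycan attachment regions of versican or the disordered tails of nuclear scaffold proteins. An exon can also appear long in a transcript catalogue when the introns between neighbouring exons are included in it, or when a start and an end of different transcripts are combined.

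The exon boundaries of 7 long exons equal to a reference exon are shown first, because they show where a long exon meets its neighbours in the spliced RNA. The bases are those of GENCODE v29 transcripts (build GRCh38) on the coding strand, 5′ to 3′. Each line holds 15 bases on either side of a junction, with the bases of the long exon in capitals and those of the neighbouring exon in lower case. Positions of the exons are given in hg19, as listed. SRRM2, which encodes a scaffold protein of nuclear speckles, had its 6701-base exon at chr16:2811562-2818262 (plus strand, exon 11 of 15 of the reference transcript). VCAN, which encodes the matrix proteoglycan versican, had exon 7 of 15 at chr5:82815168-82818128 and exon 8 of 15 at chr5:82832826-82838087, both on the plus strand. MAP1B, a microtubule-associated protein, had exon 5 of 7 at chr5:71489693-71496194 (plus strand). SPEN, a transcriptional repressor that takes part in X inactivation, had exon 11 of 15 at chr1:16254586-16262761 (plus strand). ANKRD11, a chromatin regulator, had exon 9 of 13 at chr16:89345480-89352057, and ATRX, a chromatin remodeller, had exon 9 of 35 at chrX:76937012-76940085, both on the minus strand.
SRRM2 upstream junction: aaagacaagaaggagAAATCTGCAACTCGA
SRRM2 downstream junction: GGTGGCACTGAAGAGggtccccagccccac
VCAN exon 7 upstream junction: cctactgctttaaacCTAAAGAGGCTACAA
VCAN exon 7 downstream junction: GAGAAAATAAGACAGgtcgaatgagtgatt
VCAN exon 8 upstream junction: gagaaaataagacagGTCGAATGAGTGATT
VCAN exon 8 downstream junction: CAATCTATTTACCAGgacctgatcgctgca
MAP1B upstream junction: ttcaccgatcaagagATCGGGGAGTTACTA
MAP1B downstream junction: AGACCGCCACTGCAGgaccaggaactacca
SPEN upstream junction: gttagccgaaagaagAGAGGAACGAAGGGC
SPEN downstream junction: AAGACAGCTGCTCAGggccctcctcctgaa
ANKRD11 upstream junction: aggagagctcgacggAGAGCTCAGAAGAGG
ANKRD11 downstream junction: CTCCACATCCCCGTGatcgcaccccctccc
ATRX upstream junction: ggatgaacaatgtagGTGGTGTGCGGAAGG
ATRX downstream junction: TTTGCCAATCTTCAGgagatgaagccttat
All of these long exons end in G, and the ANKRD11 exon is the only one of them that does not end in AG. The downstream junction of VCAN exon 7 and the upstream junction of exon 8 are the same join, since the pair are neighbours in the transcript.

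The long exons were sorted by comparing their lengths, and the lengths of their flanking introns, with GENCODE v29 exons of the gene of that name. An exon was called equal when a reference exon had its length and at least 1 flanking intron had the reference length. It was called joined when it equalled no reference exon but had the length of a run of consecutive reference exons with the introns between them, again with at least 1 flanking intron of reference length. Of the 3575 long exons, 661 were equal (18.5%, 95% Wilson interval 17.3 to 19.8), in 605 genes. Among all internal exons 91.1% were equal. Joined exons numbered 1378 (38.5%, 37.0 to 40.2), in 861 genes, against 1.48% of all internal exons. In a further 305 (8.53%, 7.66 to 9.49) both flanking introns had reference lengths but came from 2 reference transcripts that do not hold the exon between them. The remaining 1117 with a reference gene (31.2%, 29.7 to 32.8) met none of these rules and are called unmatched, and 114 (3.19%, 2.66 to 3.82) carried a name that matched no reference gene. Intervals cover counting error only.

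**Figure D1:**
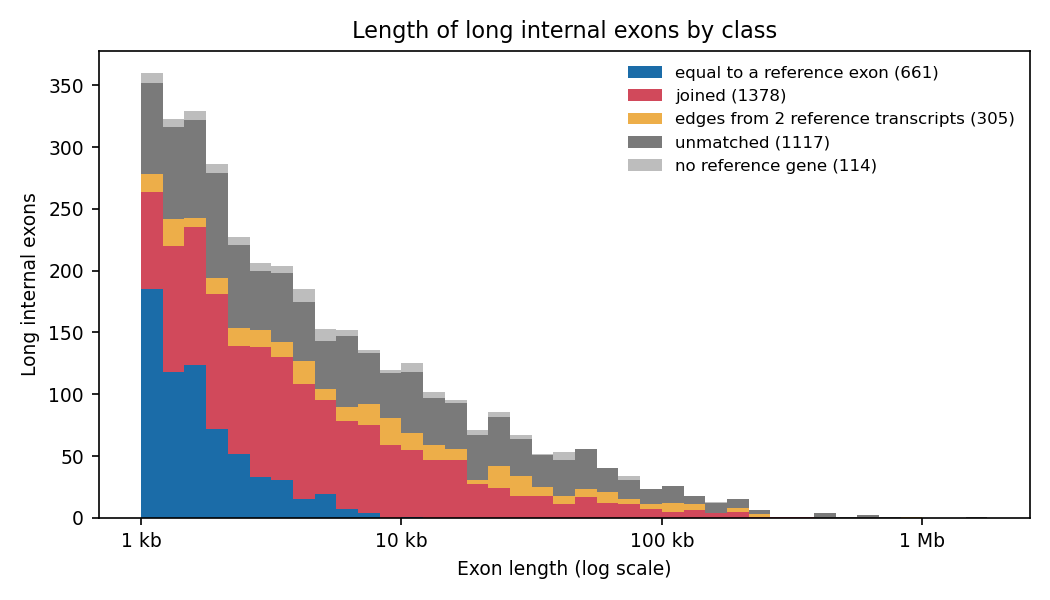
Number of long internal exons (vertical axis) by exon length in bases (horizontal axis, log scale), stacked by how the exon compared with the reference. The 661 equal exons crowd towards 1000 bases, while the exons of 10 kb or more are nearly all of the other classes.

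The classes differed in length. The equal exons had a median of 1520 bases (quartiles 1167 and 2138) and ran from 1001 to 10227. The joined exons had a median of 3795 bases (1917 to 9134) and reached 362145. Unmatched exons had a median of 5311 bases, and those with edges from 2 reference transcripts a median of 7742. Nearest the minimum stood exons of DDHD2 and LRRC14 at 1000 bases and SLC10A7 at 1001, all unmatched. Just under it stood PCBP3 at 998 bases and APOL1 and COL4A1 at 999, of which the COL4A1 exon was joined. The shortest equal members were exons of ZDHHC8 (1001 bases), SH3D19 (1005) and P4HTM (1007).

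The share of equal exons fell with each step in length, and this began below the minimum. Of 1441 internal exons of 500 to 799 bases, 70.2% were equal (67.7 to 72.5), and of 517 from 800 to 999 bases 57.8% were (53.5 to 62.0). From 1000 to 1499 bases it was 44.8% of 718 (41.2 to 48.5), and from 1500 to 1999 bases 31.5% of 483 (27.5 to 35.7). Joined exons overtook equal ones in that last range, at 36.2%. From 2000 to 4999 bases 16.4% of 991 were equal, and from 5000 to 9999 bases 4.70% of 489. Among the 894 exons of 10000 bases or more a single one was equal, the exon of STARD9, which encodes a kinesin-like protein of the spindle pole. No equal exon was found among the 90 of 100000 bases or more.

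**Figure D2:**
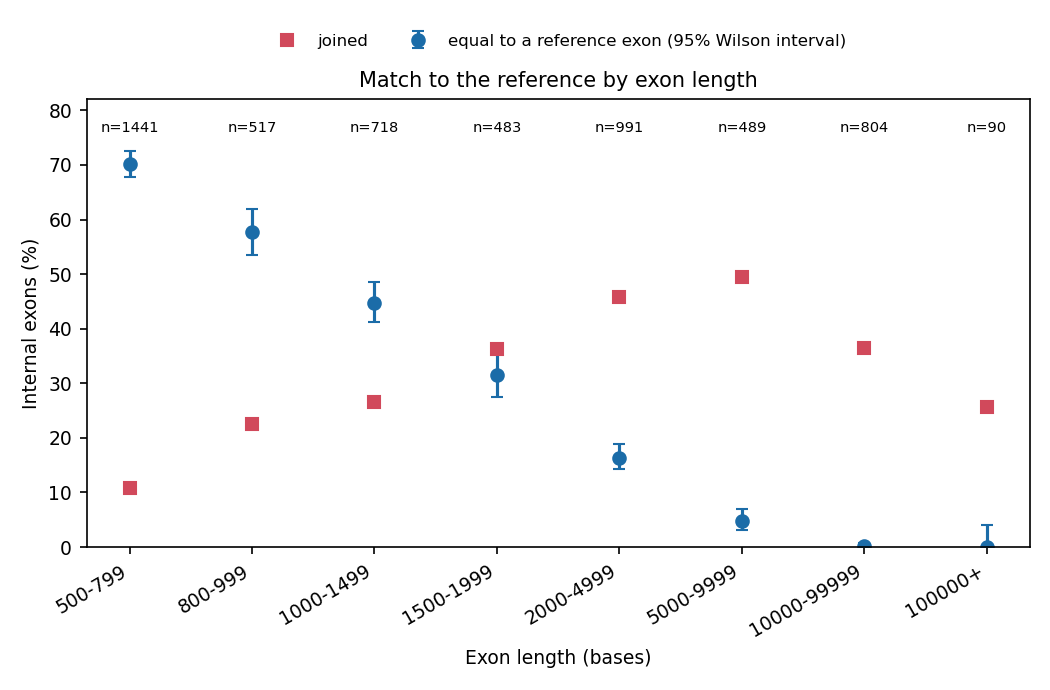
Percentage of internal exons (vertical axis) that were equal to a reference exon (circles, bars are 95% Wilson intervals) or joined (squares), by exon length in bases, with the number of exons above each range. Equal exons go from 70.2% at 500 to 799 bases to 0 at 100000 bases or more, and joined exons are highest, at 49.5%, from 5000 to 9999 bases.

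The equal long exons were mostly coding. Where several reference transcripts matched equally well, a protein-coding one was preferred, then one with a complete and longer coding sequence. The coding shares depend on this choice. On the reference transcript that matched, 486 of the 661 were coding over their whole length (73.5%, 70.0 to 76.7), against 91.1% of equal exons of all lengths. A further 155 were coding in part (23.4%) and 20 not at all (3.03%). In equal exons under 1000 bases these shares were 4.13% and 4.62%. The gap was thus widest for partly coding exons, which hold untranslated bases beside coding ones. Of the 486 wholly coding exons, 194 had a length that is a multiple of 3 (39.9%, 35.7 to 44.3), beside 40.1% at all lengths, a share near the background. Their first base was G in 50.2% (45.8 to 54.6), against 48.5% at all lengths. Their last base was G in 87.2% (84.0 to 89.9), against 80.0% at all lengths, and the last bases were AG in 68.5% (64.3 to 72.5), against 56.2%. The median GC content was 49.9% for the 486 wholly coding long exons (quartiles 42.0 and 60.3), beside 48.5% for shorter wholly coding equal exons.

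A wholly coding long exon held a median of 40.4% of the coding sequence of its transcript (quartiles 26.9 and 53.8), where a shorter exon held 4.85%. In 150 of the 486 it held 50% or more. MAP1A and MAP1B, microtubule-associated proteins best known from neurons, had 89.7% and 87.8% of their coding sequence in exons of 8185 and 6502 bases. SRRM2 had 81.2% and ANKRD11 82.3%. SPEN, with 8176 bases, had 74.4%. STARD9, with the longest equal exon (10227 bases, chr15:42976314-42986540), had 72.5%, and MKI67, the proliferation antigen Ki-67 that coats mitotic chromosomes, had 70.1% in 6845 bases. PRUNE2 had 71.2% in 6598 bases, CRYBG3 69.5% in 6196 and IGFN1 67.8% in 7539. These are the 10 longest equal exons, and each held most of the coding sequence of its transcript.

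**Figure D3:**
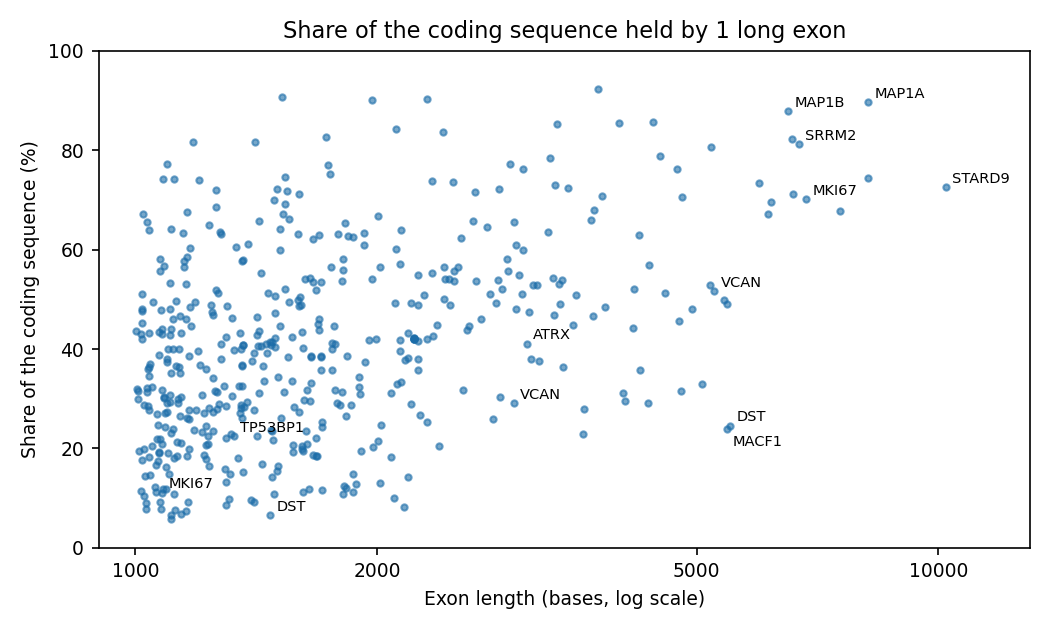
Share of the transcript's coding sequence (vertical axis, %) held by each of the 486 wholly coding long exons equal to a reference exon, against exon length in bases (horizontal axis, log scale); 1 point is 1 exon and some are named. MAP1A, MAP1B and SRRM2 lie above 80%, while the exons of MACF1 (5451 bases) and DST (5508 bases) lie at 23.9% and 24.6%.

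The length of an exon did not fix its share. MACF1 and DST, giant linkers of microtubules and actin, had exons of 5451 and 5508 bases, close to that of VCAN exon 8 (5262 bases, 51.6%), yet these made 23.9% and 24.6% of their coding sequences. VCAN exon 7 (2961 bases) made another 29.1%. The pair of VCAN exons encode the chondroitin sulphate attachment regions, and splice forms of versican are known by which of them they keep. Both were in the 2 listed isoforms that span them, with introns of 6952, 14697 and 3268 bases before, between and after them. Of all internal exons 98.0% were likewise in every listed isoform that spans them, so this is the background. All 14 introns of the best matching VCAN reference transcript were listed.

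The host genes are given by lists that were written with earlier results of these data known and that hold many genes of large proteins, so their shares describe the lists and show nothing particular to them. Over all 11869 genes with an internal exon, 5.10% had an equal long exon and 17.5% had a long exon of another class. In the list of chromatin and transcription regulators 34 of 83 genes had an equal long exon (41.0%) and 21 had another (25.3%). Among them were methyltransferases of histone H3. SETD2, which trimethylates lysine 36, had an exon of 4367 bases holding 56.8% of its coding sequence, and ASH1L had 4564 bases (51.2%). KMT2A had a 4249-base exon (35.7%), and KMT2C and KMT2D, the enhancer methyltransferases, had 4 equal exons each. Those of KMT2C measured 1884, 1820, 1710 and 1120 bases and held between 7.60% and 12.8% of the coding sequence apiece. Those of KMT2D measured 1865, 1812, 1141 and 1109 bases. KMT2C, KMT2D and PCLO were the only genes with 4 equal exons, 47 had 2, and 555 had 1.

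Other chromatin genes with an equal exon were ATRX (3074 bases, 41.1% of its coding sequence), the remodelling subunits ARID2 (2861 bases, 52.0%) and BPTF (2311 bases, 25.3%), and the methyltransferase NSD1 (2560 bases, 31.7%). The dioxygenase TET2, which oxidises methylated cytosine, had a 3455-base exon that was coding in part. The list of PRMT5 and its partners had 4 genes with an internal exon and 0 long ones.

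In the list of splicing and RNA-processing proteins 17 of 55 genes had an equal long exon (30.9%) and 18 another (32.7%). SCAF1, which binds the tail of RNA polymerase II, had 2838 bases (72.1% of its coding sequence) with a GC content of 70.8%. All of the TNRC6 genes, which encode the silencing partners of Argonaute, had an equal exon: TNRC6A of 2586 bases, TNRC6B of 2349 and TNRC6C of 2604. So did the PRRC2 family of RNA-binding proteins, with 1854 bases in PRRC2A, 2082 in PRRC2B and 2259 in PRRC2C.

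Of the zinc finger transcription factors 22 of 46 had an equal long exon (47.8%) and 13 another. ZEB1 and ZEB2, repressors of E-cadherin, had exons of 1811 and 1970 bases that held 53.7% and 54.1% of their coding sequences. HIVEP1 had 5981 bases (73.4%), ZNF521 3353 bases (85.3%) and ZFHX3 5460 bases (49.1%). Of the DNA damage repair genes 10 of 36 had an equal long exon (27.8%) and 2, RAD50 and MSH3, a joined one. MSH6, a mismatch repair protein, had 2545 bases (62.4%). The polymerases REV3L and POLQ had 4162 bases (44.3%) and 3107 bases (38.0%), and TP53BP1 had 1327 bases (22.4%).

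Of the mitosis and centrosome genes 19 of 54 had an equal long exon (35.2%) and 10 another (18.5%). ASPM, the spindle protein mutated in microcephaly, had exons of 4755 and 1480 bases. CENPF, a kinetochore protein, had neighbouring exons of 3404 and 2844 bases with 36.4% and 30.4% of its coding sequence. NUMA1, which anchors spindle poles, had 3366 bases (53.0%). Of the Golgi, endosome and nuclear pore genes 16 of 41 had an equal long exon (39.0%) and 13 another (31.7%), with joined exons in NUP210, LYST and GOLGA2. Golgins, coiled-coil tethers of vesicles, were among those with equal exons: GOLGB1 had 5189 bases (52.9%) followed by 1912 bases, GOLGA4 had 4238 (63.0%), TRIP11 3030 (51.0%) and GCC2 2466 (48.8%).

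Among the cytoskeleton and adhesion scaffolds 17 of 52 genes had an equal long exon (32.7%) and 15 another (28.8%), with AKAP12, an anchor of protein kinase A, at 5042 bases and MAP2 at 3726. The extracellular matrix list stood nearer the background for equal exons: 3 of 40 genes had one (7.50%), which were VCAN, EMILIN1 (1929 bases, 63.3%) and FBLN2 (1347 bases). Other long exons were in 12 of them, mostly joined, as in the collagens COL4A1 and COL14A1 and in FRAS1. Among genes best known from muscle, cilia or neurons 18 of 23 had a long exon that was not equal (78.3%) and 3 an equal one (13.0%). The 3 were RYR2, SHANK1 (3094 bases, GC content 74.0%) and PCLO, a presynaptic scaffold, whose 4 equal exons measured 5080, 2188, 2015 and 1407 bases.

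Each equal long exon was compared with itself at every shift from 30 bases up, and the best shift was kept. The share of identical bases at that shift had a median of 31.8%. As the best of many shifts it is above what a single shift would give, and no test of repeats was made. It was 40% or more in 27 exons, and in all 27 the shift was a multiple of 3, as it was in 580 of the 661. FMN2, an actin nucleator with a proline-rich repeat, had 58.0% at a shift of 33 bases, IWS1, a partner of the elongation factor SPT6, 56.4% at 78, and ZSCAN12, a zinc finger protein, 55.2% at 84. MKI67 had 49.2% at a shift of 366 bases, the length of the repeat for which the Ki-67 protein is known. IGFN1 had 50.7% at 108 bases and MAP4, a microtubule-associated protein, 50.4% at 42.

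Units of the MKI67 and ZSCAN12 exons are printed below each other so that the repeat can be read. They are GENCODE v29 bases (GRCh38) on the coding strand, minus strand of the chromosome for both genes, with bases shared by all 4 units in capitals. The MKI67 exon lies at chr10:129900843-129907687 and the ZSCAN12 exon at chr6:28358373-28359519 (hg19).
MKI67 unit 1: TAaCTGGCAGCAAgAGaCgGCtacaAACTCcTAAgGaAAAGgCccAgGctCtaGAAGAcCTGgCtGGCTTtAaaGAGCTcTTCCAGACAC
MKI67 unit 2: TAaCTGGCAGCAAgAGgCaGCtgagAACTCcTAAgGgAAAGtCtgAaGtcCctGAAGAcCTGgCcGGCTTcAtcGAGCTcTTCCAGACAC
MKI67 unit 3: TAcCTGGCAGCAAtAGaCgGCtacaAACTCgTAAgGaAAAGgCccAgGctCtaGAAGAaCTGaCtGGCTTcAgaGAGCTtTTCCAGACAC
MKI67 unit 4: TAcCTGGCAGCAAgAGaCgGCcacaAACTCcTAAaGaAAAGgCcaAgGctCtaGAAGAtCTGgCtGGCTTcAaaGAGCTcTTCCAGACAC
ZSCAN12 unit 1: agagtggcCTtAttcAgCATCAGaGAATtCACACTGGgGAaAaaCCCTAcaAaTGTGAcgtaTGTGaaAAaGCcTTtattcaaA
ZSCAN12 unit 2: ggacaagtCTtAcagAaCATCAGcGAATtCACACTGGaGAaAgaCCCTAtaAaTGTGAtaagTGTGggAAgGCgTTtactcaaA
ZSCAN12 unit 3: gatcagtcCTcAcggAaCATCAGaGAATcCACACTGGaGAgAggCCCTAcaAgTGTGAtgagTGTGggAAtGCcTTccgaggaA
ZSCAN12 unit 4: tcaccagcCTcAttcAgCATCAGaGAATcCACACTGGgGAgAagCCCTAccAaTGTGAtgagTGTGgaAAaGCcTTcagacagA
In MKI67 the units are windows of 90 bases set 366 bases apart, from base 2287 of the exon, and 64 of the 90 positions are shared by all 4. In ZSCAN12 they are 84 bases long and follow each other directly, from base 811, with 47 of 84 positions shared. The windows were chosen as the stretches with most shared bases, so the shared count describes them alone.

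The long exons lay throughout their genes. On a scale from 0 (first exon) to 1 (last exon) the median place was 0.480 for equal exons and the midpoint for the others, as for all internal exons. For counts by place, each exon was ranked in the isoform with most exons among those that hold it. Such shares also depend on how many exons the isoforms have, which was not matched. Long exons lay second more often than internal exons in general: 684 of the members did (19.1%, 17.9 to 20.5), against 9.51% of all internal exons. Among the equal exons 110 did (16.6%, 14.0 to 19.7). The next-to-last place held 607 members (17.0%, 15.8 to 18.2), against 9.47% of all internal exons. Among the equal exons it held 68 (10.3%, 8.20 to 12.8), near that background, and among the others 539 (18.5%, 17.1 to 19.9).

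The introns next to long exons were longer than those next to shorter exons. The median upstream intron was 2325 bases for equal long exons (quartiles 895 and 7033) and 1965 for the other long exons, against 1477 for internal exons under 1000 bases. The median downstream intron was 2398 bases (1041 to 6461), 1998 and 1384 in the same order. Both flanking introns were under 200 bases for 67 members (1.87%, 1.48 to 2.37) and for 4.26% of the shorter exons. The longest flanking introns of equal exons lay downstream of GLIS3 (180578 bases), NR3C2, the mineralocorticoid receptor (174986), and the 1407-base exon of PCLO (167762). The shortest pairs were 84 and 83 bases around the exon of FAM65A, 79 and 88 around the 1294-base exon of KMT2B, and 93 and 92 around that of KDM6B, a demethylase of histone H3.

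**Figure D4:**
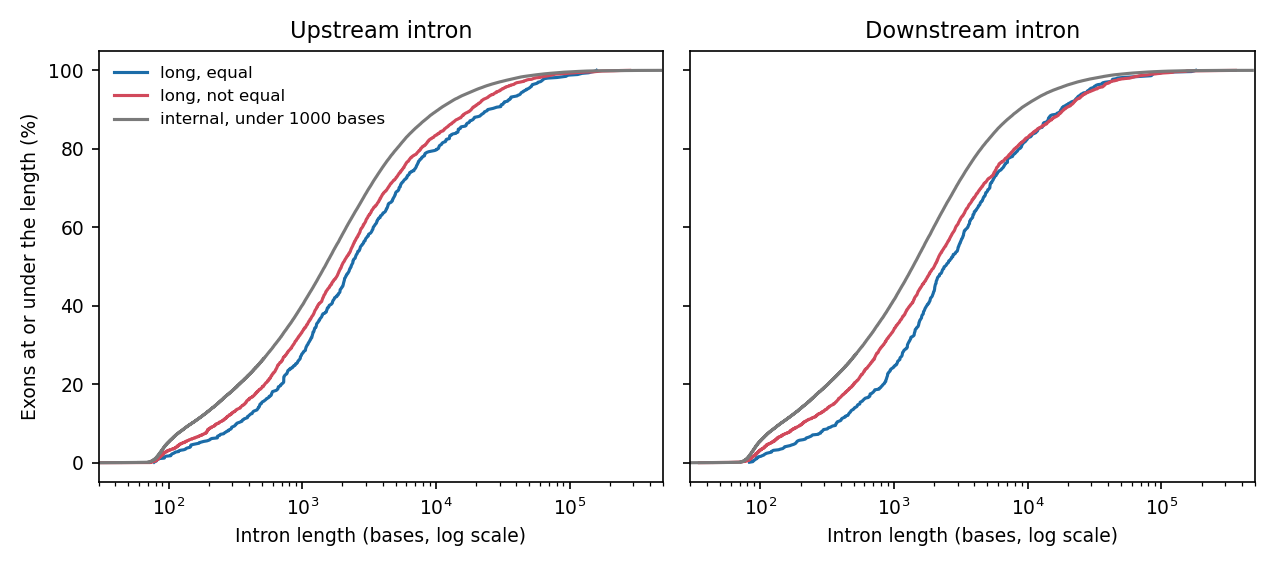
Cumulative percentage of exons (vertical axis) whose upstream (left) or downstream (right) intron is at or under a given length in bases (horizontal axis, log scale), for equal long exons, other long exons and internal exons under 1000 bases. Both curves of long exons lie to the right of the shorter exons, with medians of 2325, 1965 and 1477 bases upstream.

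No long exon was skipped in the listed isoforms. The count of members lying inside an intron of another listed isoform was 0, and the share was also 0 of all 124796 internal exons, so as listed the annotation shows skipping of no internal exon of any length. The label names consensus isoforms, and whether forms with skipping were left out of the annotation was not tested. Exons with another downstream edge were listed. For 285 members (7.97%, 7.13 to 8.91) a listed exon of the gene shared the upstream edge and ended elsewhere, against 2.12% of all internal exons. Among equal exons this held for 29 (4.39%, 3.07 to 6.23). The other exon could be internal or last. Its end may thus be a donor site or the end of a transcript, and these were not told apart. A listed exon with the same downstream edge and another upstream edge was found for 0 members, against 0.000801% of all internal exons. Of overlapping neighbours in an isoform only the later was kept before these counts, which can remove exons with another edge. How many were removed in this way was not examined, so the 0 may come from the processing. Examples with another downstream edge are the long exons of ANKRD12, PEAK1, LUZP1, NOD2 and PHF3.

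The 1378 joined exons held reference introns. In 867 of them the length was that of 2 reference exons and the 1 intron between them, 390 held 2 to 4 introns and 121 held 5 or more. Introns made up a median of 91.4% of the length of a joined exon (quartiles 83.2 and 95.9). The largest number of introns was 118, in the 210277-base exon listed for TTN, the sarcomere protein titin. The longest joined exon was 362145 bases, in DLG2, a synaptic scaffold. Protein-coding transcripts gave the match in 1308 of the 1378, where a protein-coding transcript was preferred among those that matched equally well. Whether the introns within joined exons are the detained introns named in the label was not tested.

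Most genes with a joined exon had few, and a small number of genes had many. RYR2, which releases calcium in cardiac muscle, had 16 long exons, the most of any gene, of which 15 were joined and 1 was equal (1298 bases). The dynein heavy chains of cilia DNAH6, DNAH5 and DNAH7 had 14, 12 and 10, all joined, and TTN had 12, all joined. GPR98, an adhesion receptor, had 1 equal and 8 joined, CSMD3 had 9 joined, and NUP210, a nuclear pore protein, had 8 joined. RALGAPA1, a regulator of the small GTPase Ral, had 7 joined and 1 with edges from 2 reference transcripts. NBPF20, with 9, belongs to a family of near-identical gene copies, and the assignment of reads among them was not examined. In all, 594 genes had 2 or more long exons, 207 had 3 or more, and 138 had both an equal and another long exon.

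**Figure D5:**
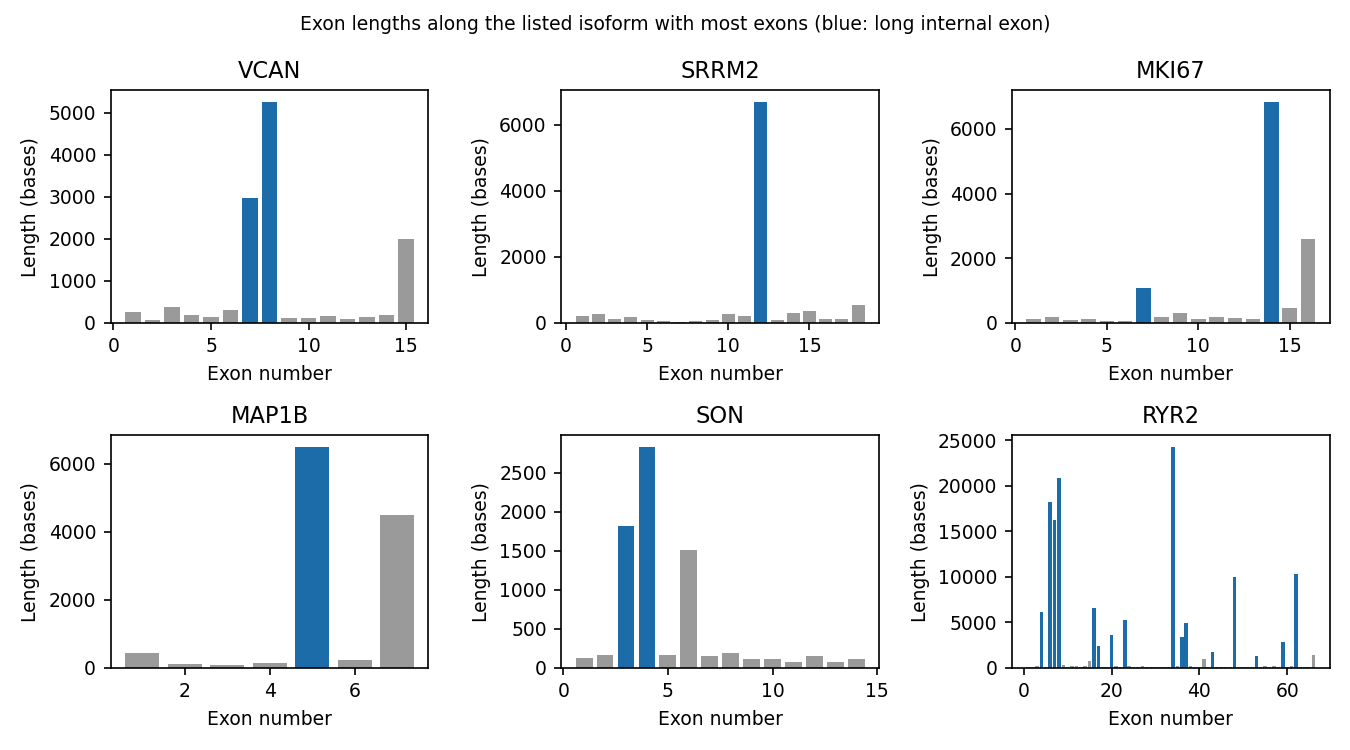
Length in bases of each exon (vertical axis) along the listed isoform with most exons (horizontal axis, exon number) for 6 genes, with long internal exons in blue and the other exons in grey. VCAN, SRRM2, MKI67 and MAP1B show equal exons of up to 6845 bases, SON shows 2 long exons of 1814 and 2832 bases, and RYR2 shows 16, of which 15 are joined.

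Genes with a joined exon had fewer of their reference introns listed. A listed intron of the gene lay inside 0 of the long exons, so introns within a joined exon were not listed. The lower share is thus in part another view of the joined exons. The median share of the introns of the best matching reference transcript that were listed was 72.7% in 850 genes with a joined exon. It was 93.8% in 461 genes whose long exons were all equal, and 92.3% in 8910 genes with no long exon. The reference transcripts had a median of 16, 12 and 9 introns in the same order, and the groups were not matched for this. TTN had 56 of 362 introns listed, DNAH6 25 of 76, NUP210 10 of 39, DNAH5 39 of 78 and RYR2 65 of 104. The collagen gene COL4A1 had 28 of 51, while MKI67 had 13 of 14 and SRRM2 11 of 14. Whether these genes were expressed in the cells cannot be told from the file.

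The longest members of all matched no reference exon or run of exons. Matching needed the same length, so a stretch whose length differs between hg19 and GRCh38 could not match. How often this occurred was not examined. DLG2 had an exon of 1518867 bases, on chr11:83676367-85195233. PTPRD, a receptor phosphatase, had one of 876934 bases whose edges came from 2 reference transcripts, on chr9:8857638-9734571. They were followed by PDE4D (772942 bases), KCNIP4 (670642), WWOX (660735), PCDH15 (486015), IMMP2L (453843), RORA (434616), PRMT2 (395212) and AC096559.1 (383356). Of the 1117 unmatched exons, 391 had only the upstream intron in the reference, 306 only the downstream intron, 36 both and 384 neither. For 24 members the reference gene of that name lay on another chromosome or strand.

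Long exons also overlapped exons of other gene names. On the opposite strand 105 members did (2.94%), against 0.813% of all internal exons. By class these were 3 equal exons (0.454%, 0.154 to 1.33), 10 joined (0.726%), 63 unmatched (5.64%, 4.43 to 7.15) and 22 with edges from 2 transcripts (7.21%, 4.81 to 10.7). On the same strand 13 members did (0.364%), against 0.123%. A longer exon covers more ground, and these shares were not set to a common length.

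Seen from the reference, most of its long internal exons were listed whole. Protein-coding transcripts of the listed genes held 1023 internal exons of 1000 bases or more, in 874 genes. Of these, 627 were listed as internal exons (61.3%, 58.3 to 64.2) and 34 as an exon that is first or last in an isoform (3.32%). A listed gap split 85 of them (8.31%, 6.77 to 10.2), and 277 (27.1%) were listed in some other way or not at all. The gap in a split exon had a median of 489 bases (81 to 4179), 74 of the 85 had 1 gap, and 44 of the first gaps were a multiple of 3 in length. No background share was taken for gap lengths, so that last count is a description only. Of the members, 22 in 21 genes were pieces of such split exons.

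SON, which encodes a nuclear speckle protein needed for splicing, shows such a split. Its 5916-base reference exon, at chr21:34921782-34927697, was listed as exons of 1814 and 2832 bases around a gap of 1270 bases. All 8 listed isoforms that span them held both pieces, as every spanning isoform did for 98.0% of all internal exons. KMT2D had reference exons of 2790 and 1539 bases split by gaps of 1200 and 108 bases, beside its 4 equal ones. In ZNF407 a gap of 294 bases split an exon of 4740, in HIVEP3 a gap of 199 split 5582, in TNC, the matrix protein tenascin C, a gap of 465 split 1410, and in NKTR, a cyclophilin, a gap of 81 split 2883. NIPBL, the cohesin loader, had a gap of 99 bases in an exon of 1626.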

How the data were processed

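Poly(A)-selected RNA of 6 libraries was sequenced, per the labels. The tools in the submitters' processing notes are, with no role given, RSEM, DESeq 1.10.1, STAR 2.4.1d, bedtools 2.20.1 and Bowtie 1.0.1, and the builds hg19 and GRCh37. The authors deposited 1 exon annotation whose only numbers are start and end positions, and the values are of no expression unit. The planned expression test between groups was not run, and depth is unknown. Of 382567 exon rows, 76 whose end preceded their start were dropped. A new isoform was begun at each change of parent or restart of the order (31659 isoforms), and of 10093 overlapping neighbours the later was kept. Reference genes were matched by name or older symbol (2458 of 2547 member genes, 107 by older symbol) and exons by length, never by position, since GENCODE v29 is GRCh38. No hg19 genome was used.

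The members and gene lists were chosen with earlier results of these data known. The class with edges from 2 transcripts, the repeats, the split exons and the shares of listed introns were chosen after seeing the data. Named genes are the 10 longest equal and 10 longest other exons, the 10 genes with most, the 3 nearest either side of the minimum, those with the 3 longest and 3 shortest flanking introns, and from each gene list the members with a long exon. Only some list members are named here, and the others are in the counts. Another list member is not reported here. Repeat, junction, split-exon and other-edge genes fall outside the rule and were named after their values were seen. Intervals are 95% Wilson intervals. The matching was tested on exons planted from the reference: 200 of 200 equal, 195 of 200 joined (the other 5 equalled an exon of another transcript) and 200 of 200 unmatched were recovered. This checks the code and gives no error rate. Analyses used Python 3.11.15, numpy 2.4.6 and scipy 1.17.1.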

Additional observations from a re-analysis of the deposited data

How the results depend on the processing

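A minimum of 2000 bases left 2374 of the 3575 long internal exons. The other alternatives, which were other minimums, other rules for internal exons and isoforms, leaving out overlapping neighbours and other matching rules, kept each count within 1.5 times. Members ranged from 2857 to 4092, equal exons from 570 (both flanking introns matched) to 668 (length alone) and joined exons from 1333 to 1406. Mean log2 lengths of flanking introns and ranks among internal exons gave like values. No paired analysis was possible because the annotation has no columns per library, so no library could be left out either. Depth is unknown, and an exon listed as long may rest on few reads.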
